A study of Mus musculus with 3 samples.

Results

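The transcripts of 10 transcription factors of naive pluripotency were followed through RNA immunoprecipitation sequencing (RIP-seq) with an antibody against YTHDF2 in mouse embryonic stem cells (ESCs). The 10 factors were Klf2, Klf4, Klf5, Esrrb, Tbx3, Tfcp2l1, Prdm14, Nr5a2, Zfp42 and Sall4, and they were taken by gene symbol from a table of 49997 genes. All 10 were in the table, and all 10 were counted well enough to be tested, as were 19601 genes in all. The core factors Nanog, Sox2 and Pou5f1 were not members and are given only for comparison. The 3 libraries of the series, 1 of input RNA and 2 of YTHDF2 immunoprecipitates (IP), were all from E14 ESCs kept with leukemia inhibitory factor (LIF) and treated with doxycycline (Dox) for 24 h. As the study describes its system, the cells carry a Dox-inducible Dux transgene and a reporter driven by the Mervl promoter, and Dox moves part of the culture into a 2-cell (2C)-like state. All 3 libraries therefore share the Dox treatment, and ESCs without Dox and an IP with a control antibody were not analysed here. The values were raw read counts per gene, with totals from 35259827 to 36986994 per library.

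Naive pluripotency is the state of ESCs that resemble the epiblast of the embryo before implantation. Around the core factors it is held by a network of further transcription factors that replace each other in part. Many of these factors, though not all, lose expression when cells leave the state. YTHDF2 is a cytoplasmic reader protein that binds mRNA carrying N6-methyladenosine (m6A) and brings it to deadenylation and decay, and several mRNAs of the pluripotency network are known to carry m6A. The IP libraries measure RNA that came down with the antibody against YTHDF2, relative to the input, and m6A itself was not measured in them. Without a control antibody, RNA bound through YTHDF2 and RNA held by the beads or the antibody cannot be told apart.

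The cells had the profile of ESCs by markers of pluripotency and of other lineages. No marker of the 2C-like state was among them, so they do not show how far Dox had moved the culture. In the input the core factors Nanog, Sox2 and Pou5f1 were all at or above 571 TPM (counts per exonic length, scaled to sum to 1000000 in each library). Of 19 markers of endoderm, trophoblast, neural cells, mesoderm and feeder cells, 12 were below 1 TPM in the input, 3 of them at 0 counts, and the highest, Eomes, reached 13.8 TPM. The 13 of these markers that were tested summed to 57.4 CPM (counts scaled to the same sum, without length) in the input. In the 2 IP libraries they summed to 120 and 110 CPM. Most of this rise came from Eomes (922 input counts against 1891 and 1862) and Sox1 (374 against 1285 and 1175). In bulk RNA, fewer cells with a transcript and less of it per cell cannot be told apart.

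The commonest sequence around m6A is GGAC, in which the A is methylated, and m6A is known to gather in long exons and near stop codons. The last GGAC before the stop codon is shown for 5 of the mRNAs on the strand of the transcript, with GGAC in capitals. They are Klf2 and Tbx3, which were enriched in the IP libraries, Klf5, which was depleted from them, and Esrrb and Zfp42, which hold the highest and the lowest coding density of GGAC among the 10. A match of these letters is a description of the sequence, not a mapped m6A site. At least 1 GGAC was present in 97.6% of the coding sequences of 15015 tested genes with a curated RefSeq mRNA.
Klf2: gtcttttcgaGGACgcggcggcagc
Tbx3: cggtggctgtGGACtcggggtcgga
Esrrb: aggcgctgcaGGACtatgagctgag
Zfp42: atgacaaaggGGACgaagcaagaga
Klf5: gctcacctgaGGACtcatacgggcg

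These windows are coding sequence of the GRCm38.p6 assembly, which is that of mm10, read with RefSeq gene models. That of Klf2 lies at chr8:72320009-72320033 on the plus strand, 395 bases before the stop codon. That of Tbx3 lies at chr5:119682908-119682932 on the plus strand, 170 bases before the stop codon, and that of Esrrb at chr12:86518878-86518902 on the plus strand, 173 bases before it. The single coding GGAC of Zfp42 lies at chr8:43296069-43296093 on the minus strand, 483 bases before the stop codon. In Klf5, on chromosome 14, the last coding GGAC lies 186 bases before the stop codon and its window crosses an exon junction.

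To determine how far each mRNA was pulled down, the 2 IP libraries were compared with the input. Klf2 and Tbx3 were enriched over 2-fold, whereas Klf5 was depleted more than 4-fold, and the other 7 factors stayed within 2-fold of the input. The 2 enriched calls depended on the processing. With the trend on exon density removed 1 remained, and with the trend on GC content removed or with a fixed dispersion 0 remained. Klf5 stayed depleted in all 3 of these fits. Over all tested genes, the main fit called 2936 enriched. Without the exon density trend it was 2620, without the GC trend 2633, and with the fixed dispersion 1577. A call of enriched or depleted required more than a 2-fold difference and an adjusted p-value under 0.05 in the quasi-likelihood test of edgeR. Thus 2 of the 10 factors were enriched, beside 15% of all tested genes, and 1 of the 10 was depleted, beside 13% of all tested genes. At any fold change, 9 of the 10 passed the adjusted p-value, 6 upward and 3 downward, beside 57.2% of all tested genes. With the fixed dispersion of 0.1 in place of the spread between the IP libraries, 1 of the 10 passed, which was Klf5. The share of all tested genes that passed there was not counted. The factors are deeply counted, and among the 7043 tested genes that averaged 1000 counts or more the share past the adjusted p-value was 85.4%. These shares were close to those of other genes, and the factors differed mainly among themselves. Their log2 fold changes ran from −2.16 to 1.29 with a median of 0.29, and over all tested genes the median was 0.01 with quartiles at −0.72 and 0.81. With the GC trend removed the median of the factors was 0.10 and that of all tested genes −0.04. With a single input library, the error in these tests comes from the IP pair alone, and how much inputs vary is unknown.

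**Figure D1:**
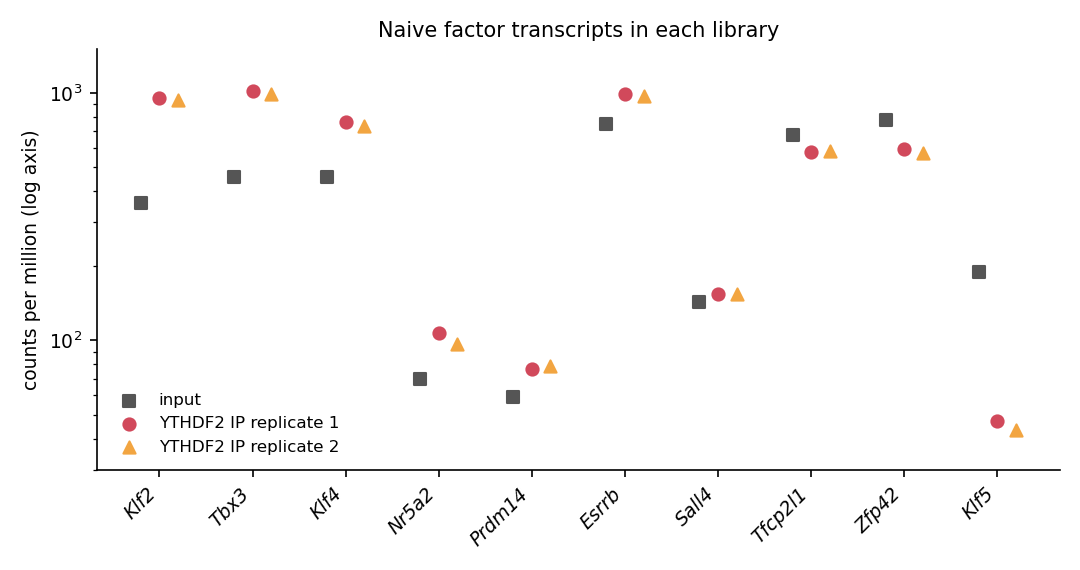
Level in CPM (log axis) of the 10 naive factor transcripts in the input (squares), YTHDF2 IP replicate 1 (circles) and YTHDF2 IP replicate 2 (triangles), ordered by fold change. The 2 IP libraries lie close together for each factor, above the input for Klf2 at 360 CPM in the input and far below it for Klf5 at 190 CPM in the input.

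The Krüppel-like factors Klf2, Klf4 and Klf5 bind the same GC-rich elements through 3 zinc fingers and are known to stand in for each other in ESC self-renewal, yet their mRNAs behaved differently in the IP. Klf2 (chr8:72319062-72321654, plus strand) had 13330 input counts, against 33542 and 33694 counts after IP. Scaled by library total, these were 360, 951 and 939 CPM, so both IP libraries were well above the input. Klf2 was 2.45-fold enriched, the highest of the 10 except with the GC trend removed (log2 fold change 1.29 ± 0.05 SE, adjusted p = 2.03e-22).

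Klf4 (chr4:55527137-55532475, minus strand), which LIF signaling induces through STAT3, had 16857 input counts, against 26802 and 26379 after IP. It too was higher in both IP libraries, but by less than the threshold, at 1.53-fold (log2 fold change 0.62 ± 0.05, adjusted p = 3.46e-13). The value of Klf4 was 0.34 with the trend on GC content removed and 0.39 with the trend on exon density removed. Klf4 has 5 other partial copies in the genome, of which 3 matched at 95.2% to 96.9% identity. Reads shared with such copies may not have been counted for it. Klf5, Esrrb, Nr5a2 and Prdm14 match other loci at 84.2% to 91.3% identity.

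Klf5 (chr14:99298691-99313412, plus strand), which also acts in trophectoderm, went the other way. Its 7013 input counts stood against 1661 and 1554 counts after IP, or 190, 47.1 and 43.3 CPM. It was 4.48-fold lower in IP than in input, with a log2 fold change of −2.16 ± 0.07 (adjusted p = 6.91e-25). Of all 19601 tested genes, including those without a curated RefSeq mRNA, 3.88% had a lower fold change than Klf5. The contrast between the 3 factors does not depend on how libraries are scaled, since it can be read within each library. For each Klf5 read there were 1.90 Klf2 reads in the input (95% Wilson interval 1.85 to 1.96), 20.2 (19.2 to 21.2) in IP replicate 1 and 21.7 (20.6 to 22.8) in IP replicate 2. The ratio of Klf4 to Klf5 reads likewise went from 2.40 in the input to 16.1 and 17.0. These intervals cover counting error only, and since both mates of a read pair could be counted they are too narrow even for that.

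The gene model behind the Klf5 value is short at its 3′ end. The counted RefSeq model holds 1728 exonic bases with a 3′ UTR of 83 bases. That length lies at the 4.3 percentile of the 15015 tested genes with a curated RefSeq mRNA. GENCODE M21 gives Klf5 5201 exonic bases over all its transcripts and a 3′ end 1624 bases further downstream. Reads from that stretch were not counted for Klf5 in any of the 3 libraries, and whether they would move its fold change was not tested. For the other 9 factors the GENCODE end lay at most 4 bases beyond that of the counted model. The median log2 fold change was −0.16 among the 846 tested genes with a RefSeq 3′ UTR of at most 100 bases. It was 0.03 among the 14169 with a longer one. Of the former 8.51% were enriched and 7.92% depleted, and of the latter 15.75% and 12.7%. A fold change as low as that of Klf5 was seen in 2.48% of the former and 1.63% of the latter. Both groups hold only genes with a curated RefSeq mRNA, whereas the 3.88% above is of all 19601 tested genes.

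**Figure D2:**
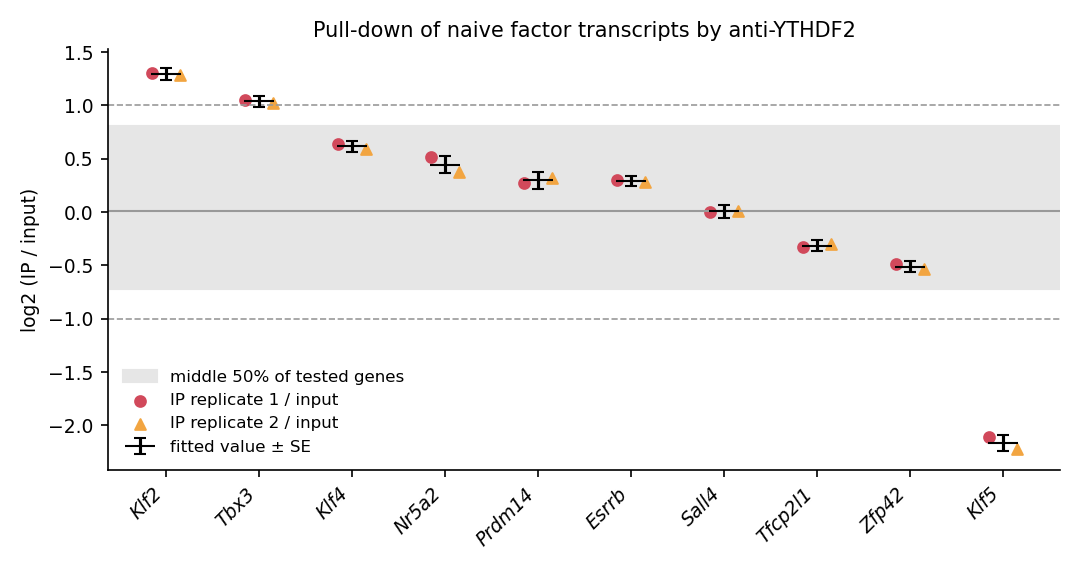
Log2 ratio of IP to input for each naive factor, with circles for IP replicate 1, triangles for IP replicate 2, and black bars with whiskers for the fitted value ± SE. The grey band is the middle 50% of all 19601 tested genes (−0.72 to 0.81) and dashed lines mark 2-fold, beyond which only Klf2, Tbx3 and Klf5 lie.

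Tbx3 (chr5:119670534-119684724, plus strand), a T-box repressor that sustains ESC self-renewal downstream of PI3K, was the other enriched factor. It had 16908 input counts and 35831 and 35537 counts after IP, or 457, 1016 and 990 CPM. The log2 fold change was 1.04 ± 0.05 (2.05-fold, adjusted p = 8.54e-20), just past the threshold. In the single libraries the log2 ratio to input was 1.05 and 1.02. Of the exons of Tbx3, 258 bases overlap the antisense gene Tbx3os1, and the counting did not use strand. Shorter overlaps were those of Tfcp2l1 with LOC115487679 (130 bases, same strand) and of Esrrb with Gm40483 (56 bases, opposite strand).

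The orphan nuclear receptors moved upward by less than 2-fold. Nr5a2 (chr1:136842562-136960448, minus strand), also called LRH-1, which binds regulatory elements of Pou5f1, had 2593 input counts, against 3774 and 3485 after IP. Its log2 fold change was 0.45 ± 0.08 (adjusted p = 5.46e-06), and it had the widest gap among the 10 between the IP libraries, 0.14 on the log2 scale. For comparison, the SD of that gap over the 12620 genes that averaged 100 counts or more was 0.20. Esrrb (chr12:86361117-86521628, plus strand), which is held down by TCF7L1 and released when GSK3 is inhibited, had 27788 input counts, against 35024 and 34928 after IP. Its log2 fold change was 0.29 ± 0.05, or 1.22-fold, with an adjusted p of 2.27e-06. With the trend on GC content removed Esrrb no longer passed and its sign turned, at −0.02 (adjusted p = 0.791), and it was at 0.15 with the exon density trend removed and 0.44 with scaling to TPM.

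Prdm14 (chr1:13113428-13127163, minus strand) keeps FGF signaling and the de novo DNA methyltransferases low in ESCs and is needed for germ cells. It had 2193 input counts, against 2706 and 2837 after IP (log2 fold change 0.30 ± 0.08, adjusted p = 0.00167). Sall4 (chr2:168748332-168767201, minus strand), a zinc finger protein that works with OCT4 and the NuRD complex, had 5287 input counts, against 5411 and 5505 after IP, the closest of the 10 to equality. Sall4 was the factor that did not pass the test, with a log2 fold change of 0.01 ± 0.06 and an adjusted p of 0.946. Other settings gave it a pass in opposite directions, upward with scaling to TPM (0.15, adjusted p = 0.0359) and downward with the trend on GC content (−0.27, adjusted p = 0.000425) or on exon density removed. Its exons overlap an antisense gene, Gm14261, over 290 bases.

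The mRNAs of the remaining pair were lower in the IP libraries than in the input, by less than 2-fold. Tfcp2l1 (chr1:118627923-118685168, plus strand), a CP2-family target of LIF and STAT3, had 24880 input counts, against 20262 and 20897 after IP (log2 fold change −0.31 ± 0.05, adjusted p = 9.06e-07). The value of Tfcp2l1 moved both ways with the processing, to −0.17 with the GC trend removed or with scaling to TPM and to −0.55 with the exon density trend removed. Zfp42 (chr8:43295067-43307009, minus strand), which encodes REX1, a widely used marker of the naive state, had 28749 input counts, against 20935 and 20541 after IP. The log2 fold change of Zfp42 was −0.51 ± 0.05, or 1.43-fold lower in IP (adjusted p = 1.6e-11). A locus on chromosome 15 matches Zfp42 at 96.8% identity over 2482 bases, so some of its reads may not have been assigned. Neither mRNA had an IP library above the input on the scale of the test.

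These changes reordered the factors. Per exonic length, Zfp42 was the most abundant of the 10 in the input at 640 TPM, followed by Klf2 at 408, Klf4 at 308, Esrrb at 301, Klf5 at 226, Tbx3 at 182 and Tfcp2l1 at 149 TPM. Sall4, Prdm14 and Nr5a2 were lowest in the input, at 53.4, 47.1 and 28.5 TPM. In the IP libraries Klf2 was first, at 1119 and 1102 TPM. Klf5 was next to last, at 58.2 and 53.4 TPM, with Nr5a2 last at 45.1 and 40.8 TPM. Sall4 lay just above Klf5, at 59.5 and 59.4 TPM. The TPM of Klf5 rests on its short counted model of 1728 exonic bases, and its place with a longer model was not tested. Tbx3 at 420 and 409 TPM and Esrrb at 413 and 404 TPM overlapped between the IP libraries, so their order there is not resolved. Klf4 (534 and 515 TPM) and Zfp42 (508 and 488 TPM) did not overlap. In the input no spread was measured, and the near-equal values of Klf4 and Esrrb have no order. Together the 10 factors took 0.394% of all counts in the input (95% Wilson interval 0.392 to 0.396%), and 0.527% (0.525 to 0.530%) and 0.517% (0.514 to 0.519%) in the IP libraries, with the same limit on the intervals. Most of this rise came from Klf2, at 360 CPM in the input against 951 and 939, and Tbx3, at 457 against 1016 and 990. Klf5, Tfcp2l1 and Zfp42 took a smaller share in both IP libraries than in the input.

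The factors were next set beside their gene families, whose proteins share a DNA-binding or PR domain. The 17 Krüppel-like factors had a median log2 fold change of 0.61, with 11 higher and 3 lower at the adjusted p-value, 4 enriched and 2 depleted. Klf5 had the lowest value of the family. The other called members above 10 CPM were Klf13, enriched at 1.92 ± 0.07 with 1746 input counts against 6644 and 6948 after IP, and Klf6, depleted at −1.13 ± 0.15 with 822 input counts against 356 and 416. Klf3 (log2 fold change 0.18 ± 0.06, adjusted p = 0.0129) and Klf9 (0.66 ± 0.06, adjusted p = 1.27e-11) were higher without reaching 2-fold, and Klf10 was at −0.15 ± 0.08 and did not pass (adjusted p = 0.118).

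Of the 4 SALL genes 2 were enriched, and among the better expressed Sall3 was at 1.03 ± 0.14, whereas Sall1 was 0.15 lower on the log2 scale (−0.15 ± 0.06, adjusted p = 0.0374), near Sall4. The 15 tested PRDM genes had a median of 0.54 with 3 enriched and none depleted, all 3 below 10 CPM on average. Prdm1, which works beside Prdm14 in germ cell precursors, was at −0.16 ± 0.18 and did not pass (adjusted p = 0.471). Among 13 tested T-box genes the median was 0.98 and 3 were enriched, and Tbx3 was the only 1 of these above 10 CPM on average. Tfcp2, the paralog of Tfcp2l1, was lower in IP than in input at −0.99 ± 0.12 (adjusted p = 3.28e-09), and Ubp1 was at −0.04 ± 0.07 (adjusted p = 0.659). Esrra was higher, at 0.58 ± 0.12 (adjusted p = 8.81e-05), so the 3 tested nuclear receptors of the ESRR and NR5A groups all passed upward with none over 2-fold, though Esrrb did not once the GC trend was removed. With the fixed dispersion neither Nr5a2 (adjusted p = 0.64) nor Esrrb (adjusted p = 0.773) passed. Yy1, the gene from which Zfp42 arose by retroposition, was at 0.18 ± 0.06 (adjusted p = 0.0102), on the opposite side of the input from Zfp42. Yy2, the other gene of this group, was at −0.52 ± 0.18 (adjusted p = 0.0134), on the same side as Zfp42.

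**Figure D3:**
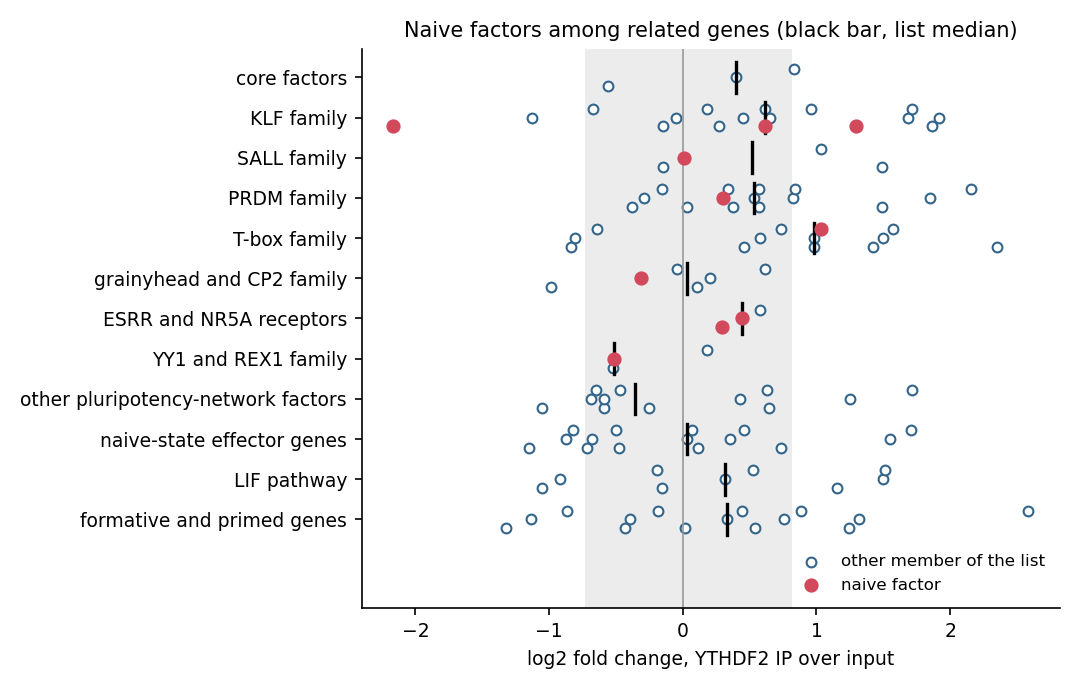
Log2 fold change of IP over input for genes of the families and gene groups related to the naive factors, with filled circles for the 10 factors, open circles for other tested genes of each list, and black bars for list medians. The grey band is the middle 50% of all tested genes, and the KLF family spans from −2.16 for Klf5 to 1.92 for Klf13.

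Other genes of the pluripotency network were also found on both sides of the input. The core factors were all within 2-fold of the input, with log2 fold changes of 0.83 ± 0.05 for Sox2, 0.40 ± 0.05 for Pou5f1 and −0.56 ± 0.05 for Nanog. Of 12 other factors of the network, 5 were higher and 7 lower at the adjusted p-value, with a median of −0.36. Those called were Gbx2 at 1.72 ± 0.09 and Nacc1 at 1.25 ± 0.05, which were enriched, and Stat3 at −1.05 ± 0.08, which was depleted.

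The LIF pathway, which feeds Klf4, Tbx3 and Tfcp2l1, had 5 of 9 genes higher and 3 lower at the adjusted p-value, with a median of 0.31. Its enriched members were Socs3, the feedback inhibitor of the pathway (1.51 ± 0.06), the kinase gene Pim3 (1.50 ± 0.06) and the receptor subunit Il6st (1.16 ± 0.06), and its depleted member was Stat3. Naive-state effector genes had a median of 0.03, and 4 of 15 were higher and 7 lower at the adjusted p-value. The growth factor gene Fgf4 (1.71 ± 0.06) and the lysosomal enzyme gene Manba (1.55 ± 0.06) were enriched, and the secreted protein gene Spp1 (−1.15 ± 0.05) was depleted.

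Genes of the formative and primed states, which come on as naive factors go down, were also found on both sides. Of 15, 6 were higher and 4 lower at the adjusted p-value, with a median of 0.33, and those called above 10 CPM on average were Sox3 (1.32 ± 0.10), Otx2 (1.24 ± 0.14) and Dnmt3b (−1.14 ± 0.11). Among the 13 tested lineage and feeder markers the median was 0.39, 3 were higher and none lower at the adjusted p-value, and Sox1 (1.68 ± 0.14) was enriched. No list was tested against the other genes. Its counts at the adjusted p-value are descriptions to be read beside the 57.2% of all tested genes, or the 85.4% of deeply counted ones, and its counts of enriched and depleted genes beside 15% and 13%.

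The members were then compared by properties of their transcripts. Across 19554 tested genes the log2 fold change rose with the GC content of the counted exons (Spearman rho 0.314). Over 4 equal groups of genes by GC content the median log2 fold change was −0.53 in the lowest and 0.43 in the highest. These genes share the same 3 libraries and are not independent replicates. Of the 10 factors, 7 had a GC content above the median of tested genes, 49.7%. Klf2 (61.5%) and Klf5 (60.1%) were the most GC-rich members, at the 97.9 and 95.9 percentiles, and lay at opposite ends of the fold changes. Nr5a2 was the least GC-rich at 43.9%. After the trend on GC content was taken out of the fit, Klf2 was at 0.53 (adjusted p = 1.14e-11) and Tbx3 at 0.78 (adjusted p = 2.89e-16), so that neither passed 2-fold. Klf5 was then lower still, at −2.81, and Nr5a2 was higher, at 0.84.

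**Figure D4:**
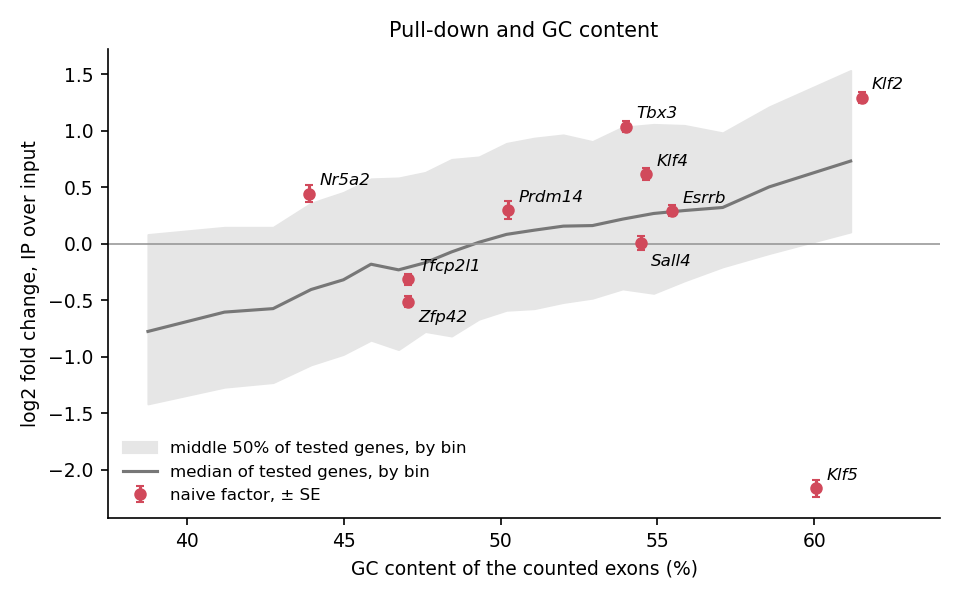
Log2 fold change of IP over input against the GC content of the counted exons for the 10 naive factors (circles, ± SE), with the median (line) and the middle 50% (band) of tested genes in 20 bins of GC content. The line climbs with GC content, and Klf5 at 60.1% GC lies far under the band at −2.16.

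The number of exons per kilobase of exon ran the other way over all tested genes, with a Spearman rho of −0.18 against the log2 fold change. Split the same way, the genes with the fewest exons per kilobase had a median log2 fold change of 0.31 and those with the most had −0.33. Of the 10 factors, 9 had fewer exons per kilobase than the median tested gene (2.47), and Sall4 had the fewest at 0.91. Klf2 and Klf4 were nearly equal at 1.65 and 1.64. With this trend taken out, Tbx3 was at 0.83 (adjusted p = 5.42e-17), under 2-fold, and Sall4 became lower in IP than in input at −0.28 (adjusted p = 0.000239).

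The density of GGAC in coding sequence was weakly related to the log2 fold change over 15015 genes (Spearman rho 0.188). Over the same genes that density and GC content had a Spearman rho of 0.395. Esrrb had the densest coding GGAC of the 10, at 9.52 per kilobase with 13 in all, and was 1.22-fold higher in IP than in input. Klf2 followed with 7.51 per kilobase and had the highest log2 fold change, although with the GC trend removed Nr5a2 and Tbx3 lay above it. Tbx3, Klf4 and Nr5a2 were at 5.84, 5.51 and 5.35 per kilobase, near the median of 4.95, and Tfcp2l1, Sall4 and Prdm14 at 4.86, 4.37 and 4.15. The lowest densities were those of Klf5, with 4 GGAC at 2.98 per kilobase, and Zfp42, with 1 at 1.15 per kilobase, and both were lower in IP than in input. Tfcp2l1 had the longest 3′ UTR at 7734 bases and was also lower in IP than in input.

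**Figure D5:**
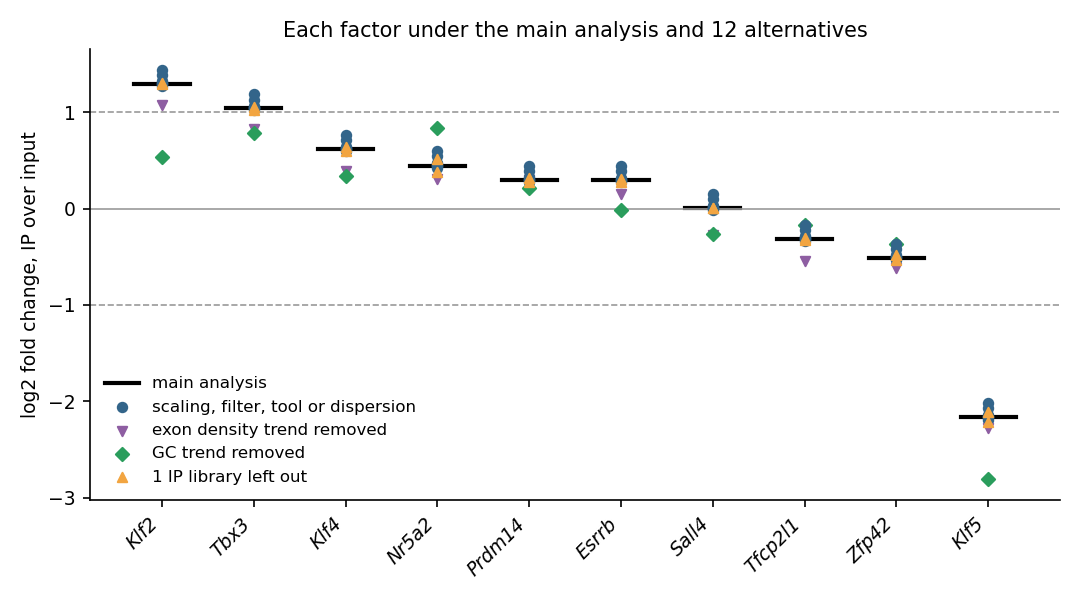
Log2 fold change of each naive factor in the main analysis (black bars) and under 12 alternatives (symbols), with dashed lines at 2-fold. Klf5 stayed between −2.81 and −2.02 throughout, whereas the removal of the GC trend (diamonds) took Klf2 from 1.29 to 0.53 and Tbx3 from 1.04 to 0.78.

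The 3 calls differed in how firmly they held. The depletion of Klf5 passed both thresholds in each alternative that gave a test, with a highest adjusted p of 0.00162. When the spread was not taken from the 2 IP libraries but set to a fixed dispersion of 0.1, the enrichment of Klf2 (adjusted p = 0.117) and of Tbx3 (adjusted p = 0.221) no longer passed. Nor did the smaller differences of Klf4, Nr5a2, Prdm14, Esrrb, Tfcp2l1 and Zfp42, whose adjusted p-values lay between 0.497 and 0.773. The log2 ratios of the 2 IP libraries to the input differed by 0.14 at most for any of the 10.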

How the data were processed

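RIP-seq libraries of Dox-treated E14 ESCs (1 input, 2 YTHDF2 IP) were grouped by sample title. Per the file headers, the authors counted reads per gene on mm10 RefSeq exons (featureCounts 2.0.3), which gave the deposited raw counts, without strand and with mates counted singly. Between counts of 1 and 100, 61.4% to 64.7% were even. The submitters' processing notes also name fastp 0.19.4, HISAT2 2.2.1 and DESeq2 1.40.2. The labels describe Trizol-extracted RNA in the IP, whereas the methods describe a cleared lysate.

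The test was that of edgeR 4.0.16 under R 4.3.3 (filterByExpr, TMM, robust quasi-likelihood F test, Benjamini-Hochberg adjustment over 19601 genes), which was tested on simulated data. The model has 1 residual degree of freedom, and the common dispersion was 0.00538. Ratios of single libraries used 0.5 added counts. Nothing says that the IP libraries came from separate cultures, so p-values may reflect technical spread. Copies in the genome were sought with minimap2 2.31. The named genes were all 10 factors, the core factors, close paralogs, and at most 4 called genes of each list with a mean of at least 10 CPM. The factors and the 14 lists were chosen with earlier results of these data known.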

Additional observations from a re-analysis of the deposited data

How the results depend on the processing

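The median log2 fold change of the 10 factors (0.29) was 0.39 with scaling by total counts, 0.44 with scaling to TPM, 0.32 with no filter on low counts, 0.27 with a filter at 1 CPM, 0.31 with DESeq2, 0.22 with the exon density trend removed and 0.10 with the GC trend removed. Of the 2 enriched factors, 1 stayed enriched with the exon density trend removed, 0 with the GC trend removed and 0 with the fixed dispersion, and the cause was not tested. Klf5 was depleted in each of these fits. At any fold change 9 of the 10 passed the adjusted p-value, against 10 with scaling to TPM or with the exon density trend removed and 1 with the fixed dispersion. The log2 fold change of Esrrb turned to −0.017 with the GC trend removed, and that of Sall4 to −0.0158 with the CPM filter, −0.28 with the exon density trend removed and −0.27 with the GC trend removed. Over all tested genes, scaling to TPM moved the median by 0.15. It gave 3538 enriched and 2021 depleted genes, against 2936 and 2543. The fixed dispersion gave 1577 and 1531, the removal of the GC trend 2633 and 2243, and that of the exon density trend 2620 and 2507. Halved counts, which stand for read pairs, changed no call among the 10. Without either IP library a log2 ratio has no test. No paired analysis was possible because there was only 1 input library for the 2 IP libraries. Each factor had at least 1554 counts per library. Variation between inputs and pull-down by a control antibody were not measured.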
